A study of Homo sapiens with 9 samples.

Results

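Interferon-stimulated genes (ISGs) and RNA sensors were followed in HCT116, a widely used line of human colorectal cancer cells, as a list of 44 named genes. They were chosen by symbol, as the receptors that detect foreign RNA and the best known genes that interferon switches on. The choice was made with earlier results of these data known. Of the 44 genes, 36 had a row among the 15354 rows of the table, and 33 of these were among the 13893 genes tested, those at or above 1 CPM (the reads of a gene scaled to a common library total) in 3 or more of the 9 libraries. DHX58, OAS2, IFITM1, MX1, IFI27, IFI44, IFI44L and XAF1 were not analysed here. The cells had been reverse transfected with siRNAs, and by the study's methods RNA was taken 36 h later. The sample records give a dose of 25 nM, while the study's methods state a higher dose for siRNA transfections. The labels give 3 groups of 3 libraries: a control siRNA, and siRNA A and siRNA B, both directed at the long non-coding RNA SNHG5. Every group was transfected, so the control cells too had received a short double-stranded RNA, and no untransfected or interferon-treated library was among the 9. The study's methods call the 3 RNA samples of a group biological replicates. The labels do not say how they were kept apart, and p-values measure the spread between them.

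Cells detect foreign RNA with RIG-I (encoded by RIGI) and MDA5 (encoded by IFIH1) in the cytosol and with TLR3 in endosomes. These sensors act through the adaptors MAVS and TICAM1 and lead to the secretion of interferons. Interferons bind receptors coupled to the kinases JAK1 and TYK2, which activate STAT2 and its relatives. With IRF9, STAT2 acts in the complex ISGF3, which binds the interferon-stimulated response element (ISRE) in the promoters of ISGs. ISG products block viral entry, translation and replication, and the sensors are themselves ISGs, so that a cell without infection carries a basal level of many of them.

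SNHG5 (ENSG00000203875) was checked first. It stood at 31.3, 22.1 and 25.9 TMM-scaled CPM in the control libraries, 71.5, 58.8 and 67.3 in those labelled siRNA A and 46.2, 50.3 and 46.1 in those labelled siRNA B, in every library with an siRNA label above every control library, by log2 1.29 ± 0.13 (SE, adjusted p = 1.86e-05) with siRNA A and 0.83 ± 0.13 (SE, adjusted p = 0.00059) with siRNA B. This goes against the labels of a knockdown, and another gene model shares its exons, so groups are named here as libraries labelled siRNA A or siRNA B. The study also measured SNHG5 by qRT-PCR after transfection, which was not analysed here. Below, "with siRNA A" or "with siRNA B" means in the libraries so labelled against those labelled control. Library totals ran from 15566530 to 23277549 reads, so that 1 CPM stood for 15.6 to 23.3 reads. Levels are given as CPM after TMM scaling (trimmed mean of M values, which aligns the bulk of genes between libraries). Relative to library totals alone, this scaling raises the log2 ratio to control of the siRNA A libraries by 0.37 and that of the siRNA B libraries by 0.21. All 7 markers of colorectal epithelium were present, and their summed level was 1768 to 1920.0 TMM-scaled CPM in the control libraries, 3067 to 4048 in those labelled siRNA A and 2368 to 2524 in those labelled siRNA B. Of 12 markers of lymphoid, myeloid, fibroblast and endothelial cells, 4 had a row. Their summed level was 15.7 to 17.9 in the control libraries, 11.1 to 13.99 for siRNA A and 9.03 to 10.1 for siRNA B, nearly all of it COL1A1, and the part of either marker sum in the results was not tested. In these bulk samples, fewer cells with a transcript and less of it per cell cannot be told apart.

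The promoters of the listed genes were searched for the letters of the ISRE. The window ran from 250 bases before to 50 bases after the annotated start on GRCh37, and the motif was GAAANNGAAA on either strand. Of the 33 members tested, 20 (60.6%) held at least 1 match, against 346 of the 13349 promoters of tested genes (2.59%). The GAS element, TTCNNNGAA, through which interferon gamma acts, was present in 7 of the 33 (21.2%), against 5.68% of all promoters of tested genes. A match is a description of letters, and no match says only that these letters are not in the window. The stretches that follow, read from the GRCh37 genome in the direction of the gene, are those of 9 members with an adjusted p under 0.05 in at least 1 comparison and of ISG15, which passed in none, so that matches of both kinds can be read side by side. Capitals mark the match, which reads GAAANNGAAA on the strand of the gene or TTTCNNTTTC where the match lies on the other strand.
OAS3: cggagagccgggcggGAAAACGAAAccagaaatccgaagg
IFIH1: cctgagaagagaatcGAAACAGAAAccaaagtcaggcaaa
TLR3: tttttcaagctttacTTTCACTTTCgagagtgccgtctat
DTX3L: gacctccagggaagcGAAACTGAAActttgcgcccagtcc
IFIT1: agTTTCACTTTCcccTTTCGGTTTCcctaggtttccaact
IFIT3: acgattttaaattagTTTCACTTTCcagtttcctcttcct
IFITM3: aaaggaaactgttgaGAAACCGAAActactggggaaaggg
PLSCR1: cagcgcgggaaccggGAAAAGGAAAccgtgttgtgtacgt
EIF2AK2: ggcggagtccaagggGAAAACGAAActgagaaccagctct
ISG15: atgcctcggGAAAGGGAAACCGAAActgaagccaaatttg

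Their positions are OAS3 chr12:113376252-113376291 (+ strand), IFIH1 chr2:163175191-163175230 (- strand), TLR3 chr4:186990291-186990330 (+ strand), DTX3L chr3:122283164-122283203 (+ strand), IFIT1 chr10:91152262-91152301 (+ strand), IFIT3 chr10:91087617-91087656 (+ strand), IFITM3 chr11:320871-320910 (- strand), PLSCR1 chr3:146262449-146262488 (- strand), EIF2AK2 chr2:37384105-37384144 (- strand) and ISG15 chr1:948755-948794 (+ strand). The DTX3L stretch belongs to a pair of genes: PARP9 starts on the opposite strand, and its only match is the same run of bases read the other way. In the windows of TLR3, EIF2AK2, DTX3L and IFIT5 a match covers the start itself, and in TRIM21 it lies within the first bases transcribed. SAMHD1, which had the largest difference with siRNA B, and HERC6, RIGI, STAT2 and IRF9 held no match.

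The whole upstream windows of OAS3 and SAMHD1 show both cases, since these are the members with the largest difference for siRNA A and for siRNA B. That of OAS3 (chr12:113376029-113376278, + strand) has 2 matches, in capitals, and that of SAMHD1 (chr20:35580112-35580361, − strand) has none.
OAS3: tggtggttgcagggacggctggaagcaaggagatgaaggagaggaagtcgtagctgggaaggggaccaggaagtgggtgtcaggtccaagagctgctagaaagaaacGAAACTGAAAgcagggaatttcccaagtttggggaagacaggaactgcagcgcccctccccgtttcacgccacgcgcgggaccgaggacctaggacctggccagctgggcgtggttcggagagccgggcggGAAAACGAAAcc
SAMHD1: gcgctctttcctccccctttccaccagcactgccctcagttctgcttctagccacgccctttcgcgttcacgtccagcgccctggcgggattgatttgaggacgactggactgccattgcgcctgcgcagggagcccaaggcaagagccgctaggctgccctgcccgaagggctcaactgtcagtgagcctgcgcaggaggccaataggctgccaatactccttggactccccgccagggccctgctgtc

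**Figure D1:**
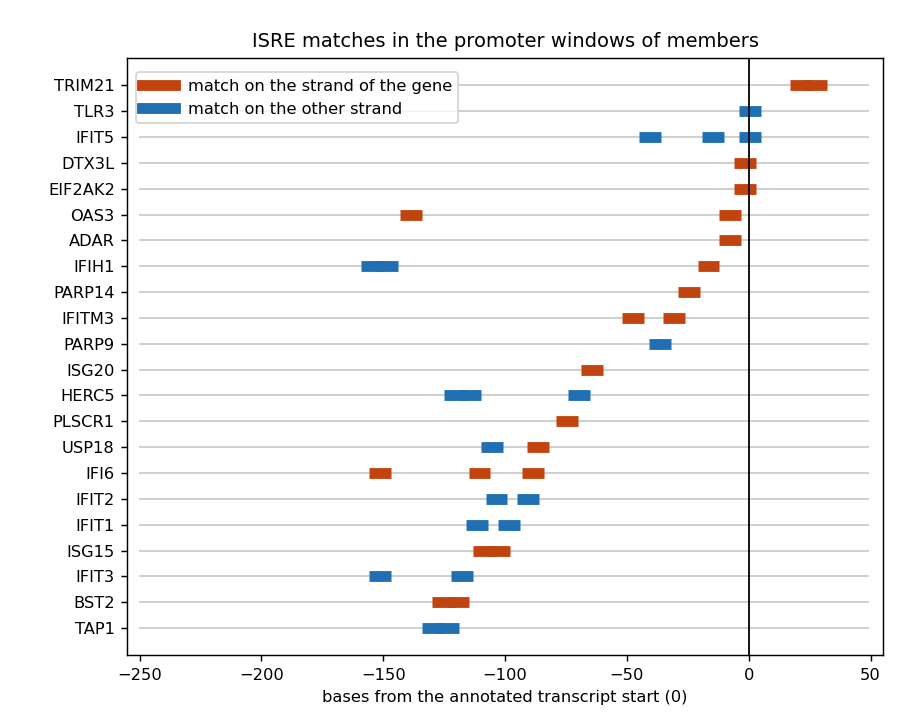
Position of ISRE matches in the promoter windows of the 22 members with a row that held one, in bases from the annotated start (grey line: the window searched). Orange marks a match on the strand of the gene and blue one on the other strand. Matches lie between 159 bases before the start, in IFIH1, and 32 bases after it, in TRIM21.

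The control libraries set the basal level. Per kilobase of the canonical transcript, IFITM3, a membrane protein that blocks viral entry, led with 224 TMM-scaled CPM per kb. It was followed by ISG15, the ubiquitin-like protein of the interferon response, at 52.4, the RNA editor ADAR at 45.9, IFITM2 at 36.5 and TRIM25, the ubiquitin ligase that assists RIG-I, at 25.5. Sensors stood far lower, RIGI at 3.23, IFIH1 at 1.76 and TLR3 at 0.351 TMM-scaled CPM per kb. At the bottom, OAS1 had at most 2 reads in any library, BST2 at most 11 and IFIT2 at most 23, and these 3 members did not pass the filter. IFIT2 ranged from 0.475 to 1.04 CPM, just outside the filter, and OASL, from 0.539 to 1.54 CPM, and IFIT3, from 0.257 to 1.97 CPM, were just inside. The last 2 reached 1 CPM in 3 libraries of the control group only, so a lower level with the siRNAs was built into their passing. TLR3 too would not have passed without the control group.

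**Figure D2:**
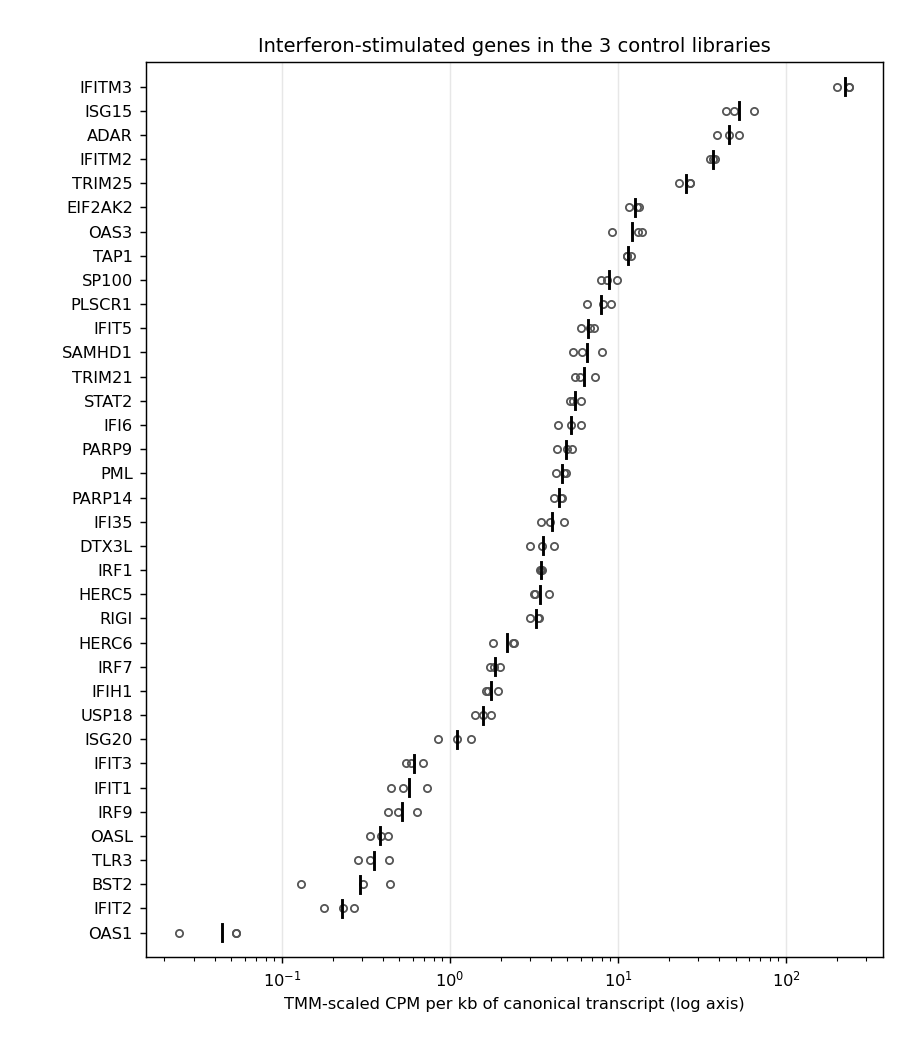
Level of the 36 members with a row in the control libraries, in TMM-scaled CPM per kb of canonical transcript on a log axis. Open circles are the 3 libraries and bars their mean. IFITM3 is at the top at 224 and OAS1, with at most 2 reads in a library, at the bottom.

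Against control, more members were lower than higher with each siRNA. With siRNA A, 15 of the 33 members fell (45.5%), where 27.6% of all genes tested fell, and 3 rose (9.09%), where 23.9% of all genes rose. With siRNA B, 15 fell (45.5%) against 18.3% of all genes, and 1 rose (3.03%) against 15.6%. The median log2 fold change of the members was −0.20 with siRNA A and −0.39 with siRNA B, and that of all genes −0.02 and 0.0043. Without OASL, IFIT3 and TLR3 12 of 30 members (40%) fell with each siRNA. Since the list was chosen with earlier results of these data known, these shares and medians are a description and not independent support. Both comparisons use the same 3 control libraries and are not independent of each other, so their values stand side by side below. Left out 1 at a time, the libraries gave 9 to 15 members lower for siRNA A, the lowest without control replicate 3, and 13 to 16 for siRNA B. Of all genes, 23.2% to 29.4% were lower for siRNA A in these settings and 14.4% to 19% for siRNA B. Without control replicate 3, the 9 of 33 members stood beside 23.2% of all genes, so that little of the excess remained for siRNA A. In every one of the 16 alternatives 9 falls and 1 rise for siRNA A and 13 falls and 1 rise for siRNA B stayed past the threshold. IFIT3 and TLR3 are among these falls with each siRNA, and a lower level was built into their passing the filter. The rise is that of IRF9 with each siRNA, and a higher level with the siRNAs was built into its passing. With library totals alone, which lower the median of all genes to −0.34 and −0.18, 21 and 23 members were lower, against 47% and 29.7% of all genes, and 1 was higher with each, against 9.05% and 6.9%.

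**Figure D3:**
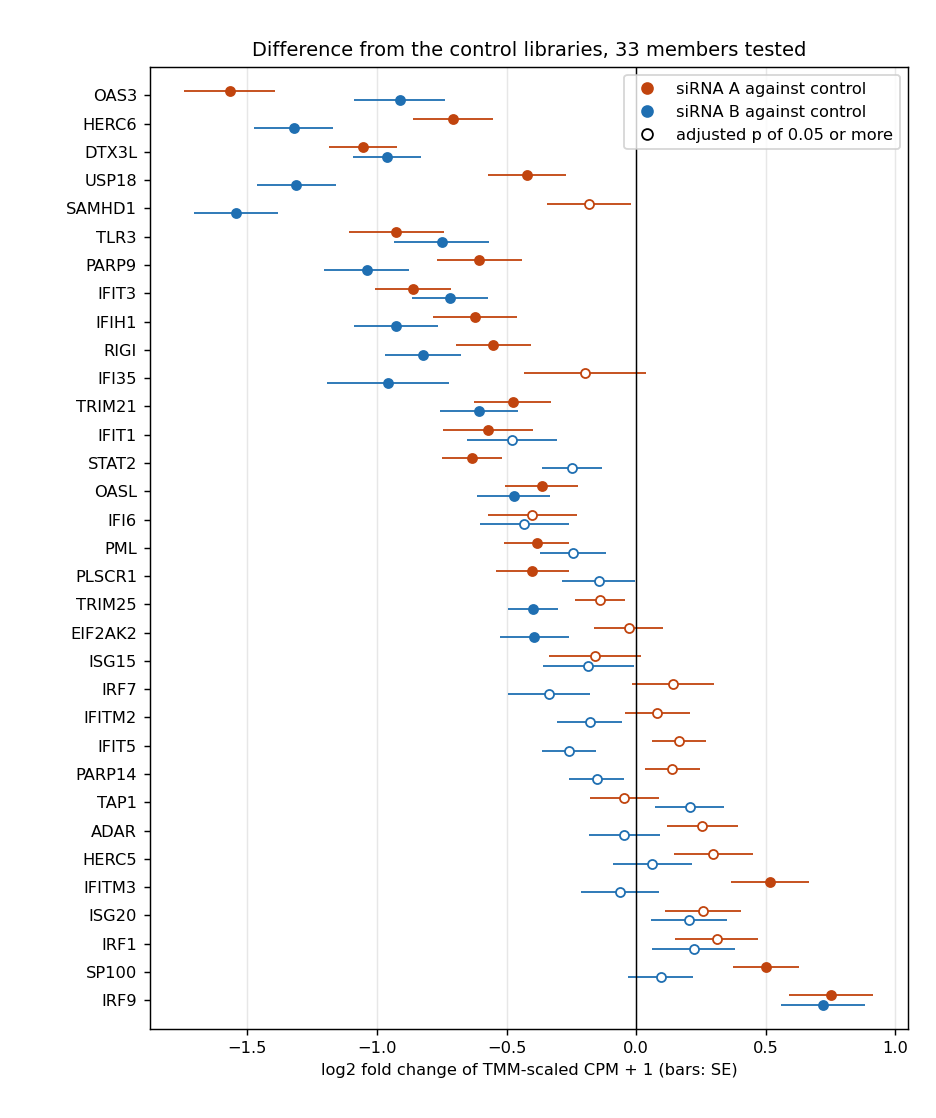
Log2 fold change against control of the 33 members tested, on the scale of TMM-scaled CPM + 1, with the SE as a bar, for siRNA A (orange) and siRNA B (blue). Filled points have an adjusted p under 0.05. Most points lie left of 0, with OAS3 lowest for siRNA A and SAMHD1 lowest for siRNA B, and IRF9 is right of 0 in both.

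Of the 3 RNA sensors tested, RIGI and IFIH1 were lower with each siRNA, where 27.6% and 18.3% of all genes fell with siRNA A and siRNA B. TLR3 was lower too, but this was built into its passing the filter. RIGI (chr9:32455300-32526206, no match to the ISRE), which encodes the sensor of RNA with a 5′ triphosphate end, stood at 15.4, 13.8 and 15.7 TMM-scaled CPM in the control libraries, 8.29, 12.02 and 9.64 in those labelled siRNA A and 7.16, 9.103 and 7.89 in those labelled siRNA B. No library with an siRNA label reached the lowest control library. The log2 fold change was −0.55 ± 0.14 (SE, adjusted p = 0.00769) with siRNA A and −0.82 ± 0.14 (SE, adjusted p = 0.00128) with siRNA B. IFIH1 (chr2:163123584-163175194) encodes MDA5, the sensor of long double-stranded RNA, and its level was 6.06, 6.95 and 5.85 in the control libraries, 4.09, 3.63 and 3.48 in those labelled siRNA A and 2.37, 2.39 and 3.901 in those labelled siRNA B. Again the groups did not overlap with control, with a log2 fold change of −0.62 ± 0.16 (SE, adjusted p = 0.00725) with siRNA A and −0.93 ± 0.16 (SE, adjusted p = 0.0012) with siRNA B. TLR3 (chr4:186990065-187009227), the endosomal receptor of double-stranded RNA, passed the filter only with the control group, at 1.72, 1.998 and 2.62 in the control libraries, 0.478, 0.831 and 0.589 in those labelled siRNA A and 0.447, 1.23 and 0.9205 in those labelled siRNA B. Its highest value with an siRNA label was below its lowest control value. The fold change on the log2(CPM + 1) scale, which understates the change of a gene this low, was −0.93 ± 0.18 (SE, adjusted p = 0.00148) and −0.75 ± 0.18 (SE, adjusted p = 0.00871). None of the 3 passed the test between siRNA A and siRNA B, where the differences were 0.27 ± 0.14 (adjusted p = 0.162) for RIGI, 0.31 ± 0.16 (adjusted p = 0.158) for IFIH1 and −0.17 ± 0.18 (adjusted p = 0.485) for TLR3. For IFIH1 the difference between siRNAs passed without siRNA B replicate 3, its highest library of that group (0.48, adjusted p from 0.0307 to 0.422 over the 16 alternatives).

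Of the enzymes that are switched on by double-stranded RNA or act on it, OAS3 changed most. OAS3 (chr12:113375856-113414265) encodes a synthetase that makes 2′-5′ oligoadenylate when it binds double-stranded RNA. It stood at 61.1, 91.7 and 86.3 TMM-scaled CPM in the control libraries, 21.4, 26.98 and 29.8 in those labelled siRNA A and 38.02, 49.9 and 37 in those labelled siRNA B. The siRNA A libraries lay lowest, those of siRNA B between them and control, and no group overlapped another. The log2 fold change was −1.57 ± 0.17 (SE, adjusted p = 3.56e-05) with siRNA A and −0.91 ± 0.17 (SE, adjusted p = 0.00217) with siRNA B. The difference between the siRNAs, −0.66 ± 0.17 (adjusted p = 0.0124), was lost on leaving out siRNA A replicate 1 (log2 −0.53 there, adjusted p 0.000922 to 0.0507 over the 16 alternatives, as in like ranges below). OASL, a relative without synthetase activity, was at 1.28, 1.09 and 1.398 in the control libraries, 0.691, 0.983 and 0.589 in those labelled siRNA A and 0.716, 0.581 and 0.5698 in those labelled siRNA B. Its values, 9 to 32 reads a library, all siRNA values below all control values, gave −0.36 ± 0.14 (SE, adjusted p = 0.0473) and −0.47 ± 0.14 (SE, adjusted p = 0.0226), and it had passed the filter through the control group. For siRNA A the call was lost in 11 of the 16 alternatives, with DESeq2 size factors, in DESeq2, with a pseudocount of 0.1, with the replicate block or on leaving out any 1 of control replicates 1, 2 and 3, siRNA A replicates 1 and 3 and siRNA B replicates 1 and 3 (log2 −0.73 to −0.30 there, adjusted p 0.00536 to 0.145 over all 16). For siRNA B it did not hold on leaving out any 1 of control replicates 1 and 3 and siRNA B replicate 3 (log2 −0.46 to −0.42 there, adjusted p 0.00615 to 0.0782 over all 16).

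EIF2AK2 encodes PKR, the kinase that halts translation on binding double-stranded RNA, and its exons overlap those of GPATCH11 on the other strand. It stood at 116, 129 and 134 TMM-scaled CPM in the control libraries, 113, 125 and 134 in those labelled siRNA A and 79.8, 116 and 95.4 in those labelled siRNA B. All 3 siRNA B libraries lay below all control libraries, replicate 2 by little (115.5 against 116.3), as did siRNA A replicate 1. The log2 fold change with siRNA B was −0.39 ± 0.13 (SE, adjusted p = 0.0376). siRNA A gave −0.03 ± 0.13 (adjusted p = 0.869). The call with siRNA B did not hold on leaving out any 1 of control replicates 2 and 3 and siRNA B replicates 1 and 3 (log2 −0.39 to −0.27 there, adjusted p 0.0025 to 0.151 over all 16). EIF2AK2 was higher with siRNA A than with siRNA B, at 0.36 ± 0.13 (adjusted p = 0.0477), a call lost with library totals alone, in edgeR, with no filter or on leaving out any 1 of control replicates 2 and 3, siRNA A replicates 2 and 3 and siRNA B replicates 1 and 3 (log2 0.21 to 0.37 there, adjusted p 0.00816 to 0.215 over all 16). ADAR, which edits adenosine to inosine in double-stranded RNA, ranged from 258 to 389 TMM-scaled CPM over the 9 libraries, and its log2 fold changes of 0.26 ± 0.14 (adjusted p = 0.14) and −0.05 ± 0.14 (adjusted p = 0.825) did not pass.

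The transcription factors of the pathway went different ways. STAT2, the subunit of ISGF3 that activates transcription, stood at 22.9, 26.5 and 23.9 TMM-scaled CPM in the control libraries, 14.5, 14.3 and 17.5 in those labelled siRNA A and 19.4, 21.2 and 20.6 in those labelled siRNA B. All siRNA A libraries were below all siRNA B libraries, which were below all control libraries, and siRNA A gave −0.63 ± 0.12 (SE, adjusted p = 0.000825). siRNA B gave −0.25 ± 0.12 (adjusted p = 0.117). The difference between siRNA A and siRNA B was −0.38 ± 0.12 (adjusted p = 0.0215) and was lost on leaving out any 1 of siRNA A replicates 1 and 2 and siRNA B replicate 3 (log2 −0.38 to −0.34 there, adjusted p 0.00772 to 0.0732 over all 16). IRF9, the subunit that gives ISGF3 its DNA binding, was low, at 0.798, 1.04 and 0.699 in the control libraries, 1.81, 2.57 and 1.98 in those labelled siRNA A and 1.52, 2.39 and 2.28 in those labelled siRNA B, and every value with an siRNA label was above every control value. It rose, at log2 0.75 ± 0.16 (SE, adjusted p = 0.00239) and 0.72 ± 0.16 (SE, adjusted p = 0.00537), the only member that rose with siRNA B. IRF9 would not have passed the filter on its control libraries, so a higher level with the siRNAs was built into its passing. Other gene models on the same and on the opposite strand share exons with IRF9, so its values are uncertain where reads fit more than 1 model. IRF9 and STAT2 belong to the same complex, and with siRNA A they moved in opposite directions. IRF7, the factor that amplifies interferon production, stood at 3.83, 3.34 and 3.495 in the control libraries, 4.09, 4.84 and 3.27 in those labelled siRNA A and 3.22, 2.13 and 2.54 in those labelled siRNA B. Neither siRNA passed against control for IRF7, at 0.14 ± 0.16 (adjusted p = 0.471) and −0.34 ± 0.16 (adjusted p = 0.121), while the difference between them was 0.48 ± 0.16 (adjusted p = 0.0326), lost with library totals alone or on leaving out any 1 of siRNA A replicates 1 and 2 and siRNA B replicates 2 and 3 (log2 0.35 to 0.47 there, adjusted p 0.0214 to 0.114 over all 16). IRF1, which acts early in the response to interferon gamma, ranged from 12.2 to 21.01 and gave 0.31 ± 0.16 (adjusted p = 0.127) and 0.22 ± 0.16 (adjusted p = 0.316).

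**Figure D4:**
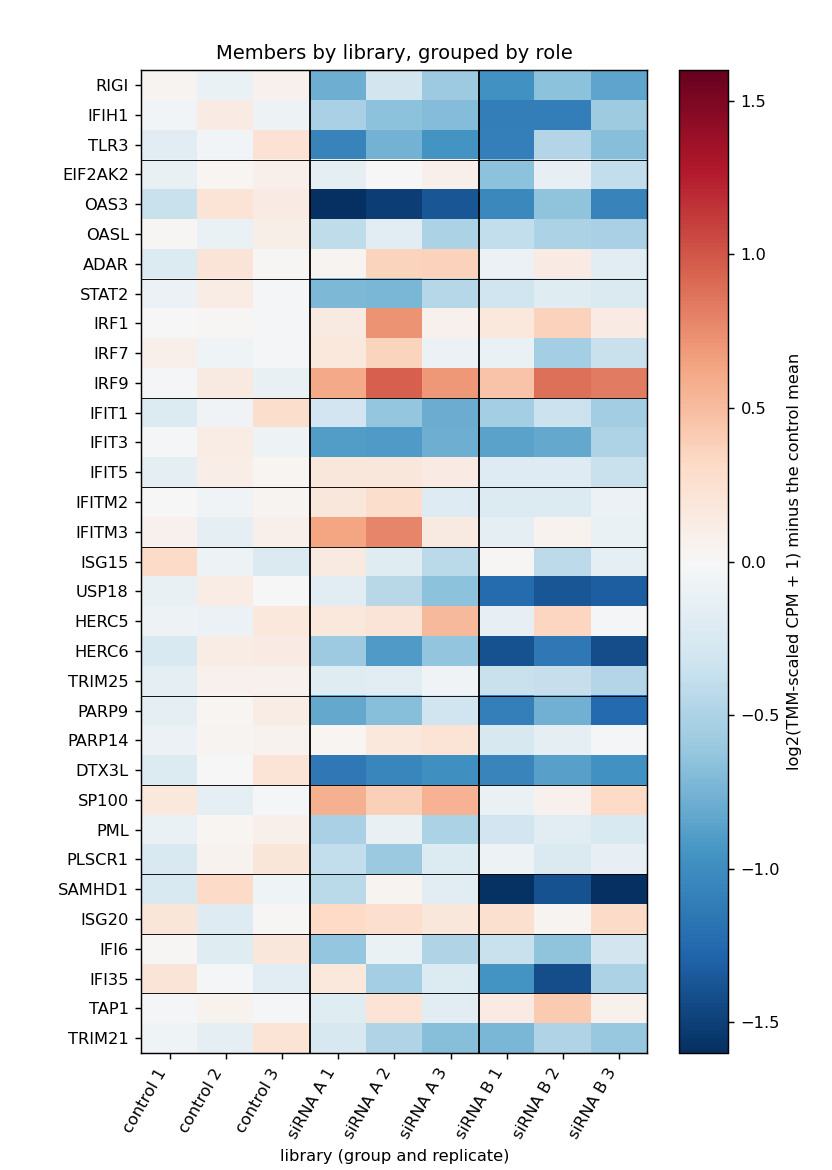
Members tested by library, as log2 of TMM-scaled CPM + 1 minus the mean of the 3 control libraries, red above and blue below that mean, with thin lines between roles. Rows such as RIGI, OAS3, HERC6 and DTX3L are blue in all 6 libraries with an siRNA label, and IRF9 is red in all 6.

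The IFIT proteins bind viral RNA that lacks the cap marks of the cell, and their genes are among the most interferon-responsive of the genome. IFIT3 stood at 1.396, 1.65 and 1.31 TMM-scaled CPM in the control libraries, 0.319, 0.302 and 0.429 in those labelled siRNA A and 0.358, 0.387 and 0.745 in those labelled siRNA B. No value with an siRNA label reached 1 TMM-scaled CPM or the lowest control value, and the log2 fold change was −0.86 ± 0.15 (SE, adjusted p = 0.00055) with siRNA A and −0.72 ± 0.15 (SE, adjusted p = 0.00311) with siRNA B, for a gene that had passed the filter through the control group. Its exons overlap those of LIPA on the other strand. IFIT1, within the span of LIPA but with no shared exon, was at 1.91, 2.26 and 3.15 in the control libraries, 1.75, 1.21 and 0.965 in those labelled siRNA A and 1.34, 1.68 and 1.31 in those labelled siRNA B. It fell with siRNA A, at log2 −0.57 ± 0.17 (SE, adjusted p = 0.0165), while siRNA B, at −0.48 ± 0.17 (adjusted p = 0.0522), missed the threshold. The call with siRNA A did not hold on leaving out any 1 of control replicate 3 and siRNA A replicate 3 (log2 −0.47 to −0.43 there, adjusted p 0.0014 to 0.0783 over all 16), and siRNA B passed with library totals alone, in edgeR, with no filter, with the replicate block or on leaving out any 1 of control replicate 1 and siRNA A replicate 1 (log2 −0.76 to −0.48 there, adjusted p 0.0116 to 0.198 over all 16). IFIT5 was the most abundant of the family, at 24.1, 28.9 and 27.3 in the control libraries, 30.3, 30.5 and 29.4 in those labelled siRNA A and 22.9, 22.9 and 20.6 in those labelled siRNA B. It passed against control with neither siRNA, at 0.17 ± 0.10 (adjusted p = 0.207) and −0.26 ± 0.10 (adjusted p = 0.0757), but every siRNA A library was above, and every siRNA B library below, every control library, and siRNA A exceeded siRNA B by 0.43 ± 0.10 (adjusted p = 0.00824). This difference did not pass with library totals alone (log2 0.27 there, adjusted p 0.00091 to 0.0942 over all 16). IFIT5 has 3 ISRE matches and IFIT3 has 2.

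The IFITM proteins sit in membranes and block the fusion of viruses with the cell. IFITM3 stood at 144, 122 and 145 TMM-scaled CPM in the control libraries, 211, 235 and 151 in those labelled siRNA A and 124, 142 and 127 in those labelled siRNA B. With siRNA A it was above every control library, though replicate 3 was close to them, at 0.52 ± 0.15 (SE, adjusted p = 0.0132). siRNA B gave −0.06 ± 0.15 (adjusted p = 0.779). The rise with siRNA A was lost with library totals alone or on leaving out any 1 of control replicate 2 and siRNA A replicate 2 (log2 0.15 to 0.43 there, adjusted p 0.00121 to 0.362 over all 16). The difference between siRNA A and siRNA B was 0.58 ± 0.15 (adjusted p = 0.0107). IFITM2 ranged from 31.3 to 44.7 and gave 0.08 ± 0.13 (adjusted p = 0.613) and −0.18 ± 0.13 (adjusted p = 0.301). IFITM2 and IFITM3 are near-identical copies, so their values are uncertain where reads fit both.

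ISG15 is attached to proteins by HERC5, with TRIM25 as another ligase, and is removed by USP18, which also restrains the interferon receptor. ISG15 itself ranged from 24.2 to 40.96 TMM-scaled CPM over the 9 libraries and did not pass, at −0.16 ± 0.18 (adjusted p = 0.475) and −0.18 ± 0.18 (adjusted p = 0.456). HERC5 ranged from 10.8 to 17.5 and did not pass either, at 0.30 ± 0.15 (adjusted p = 0.126) and 0.06 ± 0.15 (adjusted p = 0.786). USP18 (chr22:18632885-18660164) stood at 2.63, 3.26 and 2.93 in the control libraries, 2.499, 1.89 and 1.5 in those labelled siRNA A and 0.671, 0.516 and 0.5698 in those labelled siRNA B. It was lowest in the siRNA B libraries, which lay below all others, and the siRNA A libraries lay between. The log2 fold change was −0.42 ± 0.15 (SE, adjusted p = 0.0357) with siRNA A and −1.31 ± 0.15 (SE, adjusted p = 8.90e-05) with siRNA B, with a difference of 0.89 ± 0.15 (adjusted p = 0.00101) between them. The call with siRNA A did not hold in edgeR, in DESeq2, with a pseudocount of 0.1 or on leaving out any 1 of control replicates 2 and 3 and siRNA A replicates 2 and 3 (log2 −0.58 to −0.31 there, adjusted p 0.00262 to 0.137 over all 16), while the siRNA B call and the difference passed in all 16. HERC6 (chr4:89299891-89364249), a relative of HERC5 whose human protein is not the main ligase, showed the same order at 6.78, 8.99 and 9.13 in the control libraries, 5.16, 3.93 and 4.98 in those labelled siRNA A and 2.505, 3.16 and 2.46 in those labelled siRNA B. HERC6 changed by −0.71 ± 0.15 (SE, adjusted p = 0.00259) and −1.32 ± 0.15 (SE, adjusted p = 9.12e-05), and siRNA A exceeded siRNA B by 0.62 ± 0.15 (adjusted p = 0.00878). HERC5 and HERC6 are neighbours on chromosome 4, and HERC6 had no ISRE match in its window while HERC5 had 3. TRIM25, whose exons overlap those of C17orf67 and DGKE, stood at 132, 153 and 154 in the control libraries, 127, 130.2 and 140.5 in those labelled siRNA A and 114, 113 and 106 in those labelled siRNA B. It fell with siRNA B, all 3 of whose libraries were below all others, at −0.40 ± 0.10 (SE, adjusted p = 0.00831). It gave −0.14 ± 0.10 (adjusted p = 0.248) with siRNA A.

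PARP9 and DTX3L encode partners in a complex that adds ADP-ribose and ubiquitin to proteins in the interferon response, and their genes start beside each other on chromosome 3 and share exonic bases on opposite strands. Since the use of strand in the counting is not given in the sources used here, reads over the shared bases cannot be assigned. DTX3L (chr3:122283185-122294050) stood at 17.3, 20.4 and 23.9 TMM-scaled CPM in the control libraries, 8.67, 9.37 and 9.81 in those labelled siRNA A and 9.26, 10.7 and 9.95 in those labelled siRNA B. Every value with an siRNA label was below every control value, and the log2 fold change was −1.05 ± 0.13 (SE, adjusted p = 7.31e-05) with siRNA A and −0.96 ± 0.13 (SE, adjusted p = 0.000267) with siRNA B. PARP9 was at 13.2, 15.2 and 16.2 in the control libraries, 7.97, 8.92 and 11.7 in those labelled siRNA A and 6.396, 8.26 and 5.698 in those labelled siRNA B. It too lay below control in all 6 libraries, at −0.61 ± 0.16 (SE, adjusted p = 0.00907) and −1.04 ± 0.16 (SE, adjusted p = 0.000651). Both genes share the ISRE match printed above. PARP14, another mono-ADP-ribosyltransferase, stood at 32.1, 35.4 and 35.9 in the control libraries, 35.3, 38.9 and 40.1 in those labelled siRNA A and 28.5, 30.7 and 33.6 in those labelled siRNA B, and its groups overlapped control in both comparisons. It gave 0.14 ± 0.10 (adjusted p = 0.283) and −0.15 ± 0.10 (adjusted p = 0.285) against control and 0.29 ± 0.10 (adjusted p = 0.0455) between siRNA A and siRNA B, a difference lost with library totals alone or on leaving out any 1 of control replicates 2 and 3, siRNA A replicates 2 and 3 and siRNA B replicates 1 and 2 (log2 0.14 to 0.30 there, adjusted p 0.0207 to 0.365 over all 16).

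SP100 and PML are the scaffold proteins of PML nuclear bodies, and with siRNA A they moved apart. SP100 stood at 53.3, 43.04 and 46.6 TMM-scaled CPM in the control libraries, 70.8, 62.2 and 70.2 in those labelled siRNA A and 44.01, 49.8 and 59.5 in those labelled siRNA B. The siRNA A libraries were above all others, at 0.50 ± 0.13 (SE, adjusted p = 0.00605). siRNA B gave 0.09 ± 0.13 (adjusted p = 0.602). The siRNA A rise was lost with library totals alone (log2 0.14 there, adjusted p 0.000437 to 0.383 over all 16). The difference between siRNAs, 0.41 ± 0.13 (adjusted p = 0.0251), was lost with library totals alone or on leaving out any 1 of siRNA A replicates 1 and 3 and siRNA B replicate 1 (log2 0.25 to 0.38 there, adjusted p 0.00848 to 0.146 over all 16). PML was at 23.9, 26.4 and 27.4 in the control libraries, 17.7, 23.7 and 17.8 in those labelled siRNA A and 20.8, 22.6 and 21.7 in those labelled siRNA B. It fell with siRNA A, whose 3 libraries lay below the lowest control library, at −0.38 ± 0.13 (SE, adjusted p = 0.024). It gave −0.24 ± 0.13 (adjusted p = 0.159) with siRNA B. The call with siRNA A did not hold on leaving out any 1 of control replicates 2 and 3 and siRNA A replicates 1 and 3 (log2 −0.38 to −0.32 there, adjusted p 0.000275 to 0.0914 over all 16). PLSCR1, a phospholipid scramblase with antiviral activity, stood at 12.9, 16.2 and 17.9 in the control libraries, 11.5, 9.98 and 13.2 in those labelled siRNA A and 14.6, 13.1 and 14.1 in those labelled siRNA B, so that its siRNA A range overlapped that of control. It fell with siRNA A, at log2 −0.40 ± 0.14 (SE, adjusted p = 0.0333), a call lost on leaving out any 1 of control replicates 2 and 3 and siRNA A replicates 1 and 2 (log2 −0.40 to −0.30 there, adjusted p 0.00144 to 0.138 over all 16). It gave −0.15 ± 0.14 (adjusted p = 0.464) with siRNA B.

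SAMHD1 separated the siRNAs most. It breaks down the nucleotides that viruses need to copy DNA, and its exons overlap those of TLDC2 on the other strand. It stood at 25.1, 37.2 and 28.4 TMM-scaled CPM in the control libraries, 21.96, 30.8 and 26.5 in those labelled siRNA A and 9.35, 10.8 and 8.72 in those labelled siRNA B. The siRNA A libraries overlapped the control libraries, and all siRNA B libraries lay below both groups. The log2 fold change was −1.54 ± 0.16 (SE, adjusted p = 4.96e-05) for siRNA B, −0.18 ± 0.16 (adjusted p = 0.368) for siRNA A, and 1.36 ± 0.16 (adjusted p = 0.000111) between them, and the siRNA B call and the difference passed in all 16 alternatives. ISG20, an exonuclease that degrades single-stranded RNA, ranged from 1.35 to 2.39 and gave 0.26 ± 0.15 (adjusted p = 0.162) and 0.20 ± 0.15 (adjusted p = 0.312).

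Among the remaining members, IFI35, an interferon-induced leucine zipper protein, stood at 5.62, 4.65 and 4.11 TMM-scaled CPM in the control libraries, 5.48, 2.95 and 3.96 in those labelled siRNA A and 1.97, 1.16 and 3.07 in those labelled siRNA B. The siRNA B libraries lay below control and the siRNA A libraries overlapped it, at −0.96 ± 0.23 (SE, adjusted p = 0.00872) and −0.20 ± 0.23 (adjusted p = 0.507). The difference between the siRNAs, 0.76 ± 0.23 (adjusted p = 0.0247), was lost with library totals alone or on leaving out any 1 of siRNA A replicates 1 and 3 and siRNA B replicates 1 and 2 (log2 0.53 to 0.77 there, adjusted p 0.00601 to 0.0957 over all 16). IFI6, a small protein of the endoplasmic reticulum and mitochondria, ranged from 2.32 to 4.89 and did not pass, at −0.40 ± 0.17 (adjusted p = 0.0685) and −0.43 ± 0.17 (adjusted p = 0.071). It passed for both siRNAs with library totals alone and without siRNA A replicate 2 (adjusted p from 0.00354 to 0.224 for siRNA A and 0.0132 to 0.218 for siRNA B over the 16 alternatives). TRIM21, the cytosolic receptor of antibodies bound to virus, stood at 11.4, 10.7 and 14.2 in the control libraries, 9.89, 8.31 and 7.13 in those labelled siRNA A and 6.84, 8.33 and 7.58 in those labelled siRNA B. No value with an siRNA label reached a control value, and the log2 fold change was −0.48 ± 0.15 (SE, adjusted p = 0.0186) and −0.61 ± 0.15 (SE, adjusted p = 0.00859). The call with siRNA A did not hold on leaving out any 1 of control replicate 3 and siRNA A replicate 3 (log2 −0.37 there, adjusted p 0.000384 to 0.0881 over all 16). TAP1, a subunit of the transporter that carries peptides to class I molecules, ranged from 26.96 to 41.6 and gave −0.05 ± 0.13 (adjusted p = 0.795) and 0.21 ± 0.13 (adjusted p = 0.257).

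**Figure D5:**
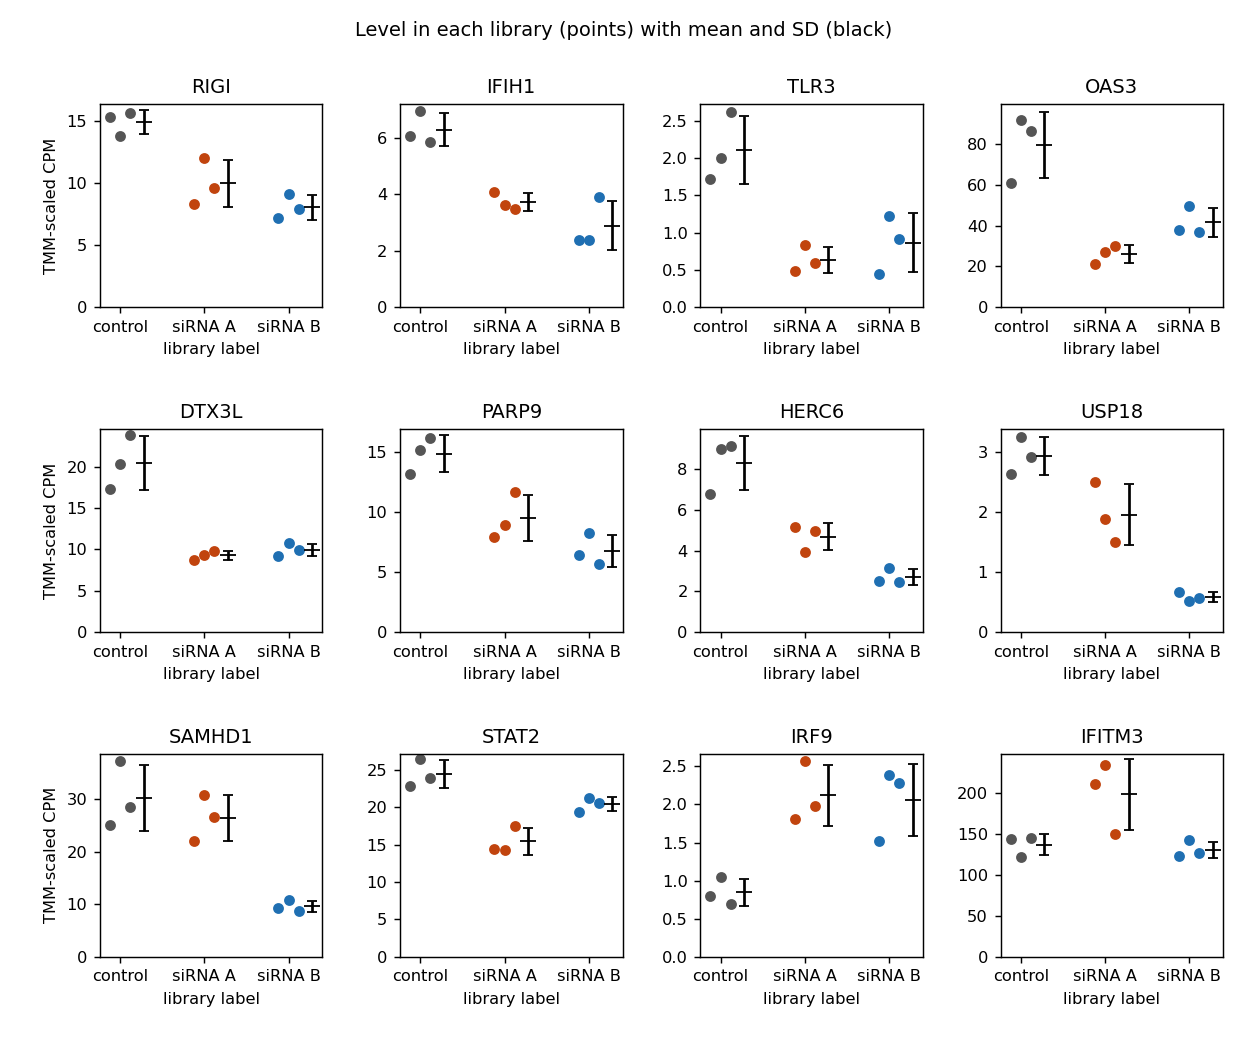
TMM-scaled CPM of 12 members in each of the 9 libraries (points), with the mean and SD of 3 libraries in black, on linear axes that start at 0. RIGI, IFIH1, TLR3, OAS3, DTX3L, PARP9 and HERC6 lie below control with both labels, SAMHD1 with siRNA B, STAT2 most with siRNA A, and IRF9 lies above control with both.

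Between the siRNAs, 12 of the 33 members differed, a share like that of all genes, of which 5155 of 13893 did. Of the 12 members, 10 (30.3% of the 33) were higher in the libraries labelled siRNA A than in those labelled siRNA B, where 17.6% of all genes tested were higher. The other 2 (6.06%), OAS3 and STAT2, were lower, where 19.5% of all genes were. The median difference of the members was 0.24 on the log2 scale and that of all genes −0.01. The differences of SAMHD1, USP18, HERC6 and IFITM3 passed in all 16 alternatives. Left out 1 at a time, the libraries gave 6 to 11 members higher, the lowest without siRNA B replicate 1, and 0 to 2 lower, with 0 without siRNA A replicate 1 and 1 without siRNA B replicate 3. Without siRNA B replicate 1, the 6 of 33 members stood beside 14.2% of all genes, so that little of the excess remained. With library totals alone 4 were higher and 3 lower, against 10.2% and 27% of all genes.

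Members with and without an ISRE match were compared as a description. With siRNA A, 10 of the 20 members with a match fell and 1 rose, and 5 of the 13 without one fell and 2 rose. With siRNA B, 9 of the 20 and 6 of the 13 fell. These falls include TLR3 and IFIT3, with a match, and OASL, without one, whose lower level was built into their passing the filter. The rises without a match include IRF9, whose higher level with the siRNAs was built into its passing. The median log2 fold change was −0.40 with and −0.18 without a match for siRNA A, and −0.41 and −0.34 for siRNA B. Of the 326 other tested genes with a match, 23.3% fell with siRNA A and 16% with siRNA B, against 28% and 18.5% of the 12990 genes with none.

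The rest of the pathway was read from a list of 53 other genes, of which 43 were tested. With siRNA A 13 of these rose (30.2%) and 13 fell (30.2%), and with siRNA B 7 rose (16.3%) and 12 fell (27.9%), beside the shares of all genes given above. The falls with each siRNA include PSMB9, and the rises with siRNA B include IFNE. These directions were built into their passing the filter, and no count of this list was made without such genes. Between the siRNAs 7 were higher (16.3%) and 8 lower (18.6%) with siRNA A, near the 17.6% and 19.5% of all genes. Of the ligands, IFNE, an epithelial type I interferon, was the only one tested, at 0.398 ± 0.105, 0.969 ± 0.414 and 2.15 ± 0.657 TMM-scaled CPM in the control, siRNA A and siRNA B libraries (mean ± SD, n = 3). It had 7 to 45 reads a library and would not have passed the filter without the siRNA B group, so a higher level there was built into its passing. The log2 fold change was 1.16 ± 0.19 (SE, adjusted p = 0.000873) with siRNA B and 0.47 ± 0.19 (adjusted p = 0.0562) with siRNA A. The latter passed in edgeR, in DESeq2, with a pseudocount of 0.1, with no filter, with the replicate block or on leaving out any 1 of siRNA A replicate 3 and siRNA B replicate 2 (log2 0.47 to 1.29 there, adjusted p 0.0191 to 0.191 over all 16). Other ligands (IFNB1, IFNL1, IFNL2, IFNL3 and IFNG) were not analysed here. Of the receptor chains, IFNAR2, which binds type I interferon with high affinity, averaged 10.1 ± 0.147, 5.34 ± 1.25 and 6.01 ± 1.15 TMM-scaled CPM in the control, siRNA A and siRNA B libraries. It fell, at log2 −0.82 ± 0.16 (SE, adjusted p = 0.00144) and −0.67 ± 0.16 (SE, adjusted p = 0.00828), while its partner IFNAR1 gave −0.03 ± 0.12 (adjusted p = 0.857) and 0.17 ± 0.12 (adjusted p = 0.284). IL10RB, a chain of the interferon lambda receptor, fell, at log2 −0.77 ± 0.16 (SE, adjusted p = 0.0021) and −0.65 ± 0.16 (SE, adjusted p = 0.00947). The other chain, IFNLR1, fell with siRNA A, at log2 −0.78 ± 0.14 (SE, adjusted p = 0.000819). It gave −0.12 ± 0.14 (adjusted p = 0.553) with siRNA B. IFNGR1, a receptor of interferon gamma, gave 0.43 ± 0.16 (adjusted p = 0.0384) and −0.13 ± 0.16 (adjusted p = 0.563), and its siRNA A call did not hold with library totals alone or on leaving out any 1 of control replicates 1 and 2 and siRNA A replicates 2 and 3 (log2 0.08 to 0.48 there, adjusted p 0.0116 to 0.672 over all 16).

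The kinases JAK1 and TYK2, which sit on these receptors, differed between siRNA A and siRNA B, by 1.11 ± 0.11 (adjusted p = 4.01e-05) and −0.52 ± 0.10 (adjusted p = 0.00246). JAK1 averaged 103 ± 5.7, 169 ± 20.5 and 77.4 ± 6.13 TMM-scaled CPM in the control, siRNA A and siRNA B libraries. It rose with siRNA A, 0.71 ± 0.11 (SE, adjusted p = 0.00029), and fell with siRNA B, −0.41 ± 0.11 (SE, adjusted p = 0.0139). TYK2 fell with siRNA A, at log2 −0.54 ± 0.10 (SE, adjusted p = 0.00119). It gave −0.01 ± 0.10 (adjusted p = 0.935) with siRNA B. On the sensing side, MAVS, the adaptor of RIG-I and MDA5, fell with siRNA A, at log2 −0.60 ± 0.16 (SE, adjusted p = 0.00864). It gave 0.19 ± 0.16 (adjusted p = 0.401) with siRNA B, and IRF3, the factor it activates, gave −0.11 ± 0.14 (adjusted p = 0.521) and −0.13 ± 0.14 (adjusted p = 0.507). Of the negative regulators, NLRX1, which restrains MAVS, fell, at log2 −1.07 ± 0.12 (SE, adjusted p = 4.84e-05) and −0.67 ± 0.12 (SE, adjusted p = 0.0018). PTPN2, a phosphatase of JAK1, rose, at log2 0.75 ± 0.13 (SE, adjusted p = 0.000736) and 0.44 ± 0.13 (SE, adjusted p = 0.0254). PTPN11, the phosphatase also called SHP2, gave 0.36 ± 0.11 (adjusted p = 0.0193) and −0.40 ± 0.11 (adjusted p = 0.0186), its siRNA A value turning to −0.0063 with library totals alone. RNF125, a ligase that marks RIG-I for decay, fell with siRNA B, at log2 −0.78 ± 0.13 (SE, adjusted p = 0.000849). It gave −0.07 ± 0.13 (adjusted p = 0.665) with siRNA A. Calls in this group that did not hold in every alternative included JAK1 with siRNA B, lost on leaving out any 1 of control replicate 3 and siRNA B replicate 3 (log2 −0.38 to −0.36 there, adjusted p 0.000872 to 0.0522 over all 16). The call of PTPN2 with siRNA B was lost with library totals alone or on leaving out any 1 of control replicate 2 and siRNA B replicates 1 and 3 (log2 0.23 to 0.46 there, adjusted p 0.008 to 0.211 over all 16). Those of PTPN11 were lost on leaving out any 1 of control replicates 1 and 3 and siRNA A replicates 2 and 3 (log2 0.30 to 0.36 there, adjusted p 0.00394 to 0.97 over all 16) with siRNA A and on leaving out any 1 of control replicates 2 and 3 and siRNA B replicates 1 and 3 (log2 −0.40 to −0.36 there, adjusted p 0.00172 to 0.0657 over all 16) with siRNA B.

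Enzymes that work with members of the list were measured too. UBE2L6, the conjugating enzyme of ISG15, averaged 7.18 ± 0.277, 3.52 ± 0.571 and 2.73 ± 0.156 TMM-scaled CPM in the control, siRNA A and siRNA B libraries, and fell, at log2 −0.86 ± 0.13 (SE, adjusted p = 0.000251) and −1.14 ± 0.13 (SE, adjusted p = 8.57e-05). ADARB1, the second active editor of double-stranded RNA, fell with siRNA A, at log2 −0.83 ± 0.13 (SE, adjusted p = 0.000294). It gave −0.06 ± 0.13 (adjusted p = 0.763) with siRNA B. MOV10, an RNA helicase, rose with siRNA B, at log2 0.60 ± 0.10 (SE, adjusted p = 0.00104). It gave 0.05 ± 0.10 (adjusted p = 0.691) with siRNA A, a value that was −0.31 with library totals alone.

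Antigen presentation by class I molecules, another arm of the interferon response, held genes that moved either way. Of its 9 genes tested, 4 rose (44.4%) and 3 fell (33.3%) with siRNA A, beside 23.9% and 27.6% of all genes. With siRNA B 2 rose (22.2%) and 3 fell (33.3%), beside 15.6% and 18.3%. The falls with each siRNA include PSMB9, whose lower level was built into its passing the filter, and no count was made without it. The heavy chain HLA-B gave 0.87 ± 0.15 (adjusted p = 0.000575) and 0.47 ± 0.15 (adjusted p = 0.0305), and the light chain B2M 0.47 ± 0.12 (adjusted p = 0.00576) and 0.56 ± 0.12 (adjusted p = 0.00383). Reads shared between HLA genes make their single values uncertain. NLRC5, the activator of class I genes, averaged 3.51 ± 0.404, 1.15 ± 0.357 and 1.65 ± 0.065 TMM-scaled CPM in the control, siRNA A and siRNA B libraries, and fell, at log2 −1.08 ± 0.15 (SE, adjusted p = 0.000148) and −0.76 ± 0.15 (SE, adjusted p = 0.00256). PSMB9, a subunit of the immunoproteasome that passed the filter only with the control group, fell, at log2 −0.65 ± 0.21 (SE, adjusted p = 0.0204) and −0.62 ± 0.21 (SE, adjusted p = 0.0363). Of the peptide loading genes, TAP2, the partner of TAP1, gave −0.20 ± 0.10 (adjusted p = 0.101) and −0.66 ± 0.10 (adjusted p = 0.00041), and TAPBP, which encodes tapasin, −0.44 ± 0.10 (adjusted p = 0.00324) and 0.13 ± 0.10 (adjusted p = 0.338). The call of B2M with siRNA A was lost with library totals alone (log2 0.10 there, adjusted p 0.000514 to 0.434 over all 16), and that of HLA-B with siRNA B with library totals alone or on leaving out any 1 of control replicates 2 and 3 and siRNA B replicates 1 and 3 (log2 0.26 to 0.44 there, adjusted p 0.00571 to 0.218 over all 16). PSMB9 lost its call with siRNA A on leaving out any 1 of control replicates 1 and 2 and siRNA A replicate 2 (log2 −0.58 to −0.49 there, adjusted p 0.00445 to 0.0825 over all 16) and with siRNA B on leaving out any 1 of control replicates 1 and 2, siRNA A replicate 3 and siRNA B replicates 1 and 2 (log2 −0.63 to −0.47 there, adjusted p 0.00962 to 0.126 over all 16).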

How the data were processed

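RNA-seq libraries of HCT116 cells (oligo-dT purified, single reads of 50 bases) were grouped by their labels, 3 per group. The authors deposited 1 table of CPM, in which reads per gene are scaled to a common library total. The submitters' processing notes name TopHat2, HTSeq and GRCh37, and the use of strand is not given in the sources used here. All values (100%) were whole multiples of 1 read (tolerance 0.01). No column of other samples was present.

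CPM values were scaled by TMM factors (edgeR 4.0.16) and log2(CPM + 1) was tested with limma 3.58.1 (R 4.3.3) with a variance trend, all 9 libraries in 1 model with a mean per group (6 residual degrees of freedom), on the 13893 genes that reached 1 CPM in 3 or more libraries. Benjamini-Hochberg adjustment ran over these genes, with a threshold of 0.05. Fold changes understate the change of low genes. The edgeR quasi-likelihood test and DESeq2 1.42.0 on the recovered reads were among 16 alternatives. The edgeR test called 7160 genes for siRNA A, 4780 for siRNA B and 5105 for siRNA A against siRNA B, and limma 7145, 4719 and 5155. Replicates of a group correlated with r from 0.983 to 0.994 and differed by more than sampling noise. Same-numbered control and siRNA A libraries deviated together (0.646, 0.411 and 0.13), as pairs would, though the labels do not state a pairing. The main values do not use it, since their model had no replicate block. The block was 1 of the 16 alternatives, whose ranges and changed calls are reported.

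Every member with an adjusted p under 0.05 in a comparison is given by library, other tested members by range, and pathway genes if they passed with an absolute log2 fold change of at least 0.5, with 7 core genes always. A few items that these rules name are not reported here. The members and lists were chosen with earlier results of these data known. Gene positions, canonical transcripts (GENCODE on GRCh37) and promoter windows come from the reference, scanned with Python 3.11.15. The script for the test was tested on simulated data. Reads carry no molecular identifiers, so floors cover counting error only.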

Additional observations from a re-analysis of the deposited data

Results flagged for a closer look

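The effects of siRNA A and siRNA B against the same control differed for 12 of the 33 members, by the test of the difference itself (limma, adjusted over all 13893 genes tested, n = 3 libraries per group). Of all 13893 genes, 5155 differed in this test, a like share, so the number that differed does not set the members apart. Each member is given here by the log2 fold change with siRNA A minus that with siRNA B. The values were SAMHD1 1.36 (adjusted p = 0.000111), USP18 0.89 (adjusted p = 0.00101), IFI35 0.76 (adjusted p = 0.0247), OAS3 −0.66 (adjusted p = 0.0124), HERC6 0.62 (adjusted p = 0.00878), IFITM3 0.58 (adjusted p = 0.0107), IRF7 0.48 (adjusted p = 0.0326), IFIT5 0.43 (adjusted p = 0.00824), SP100 0.41 (adjusted p = 0.0251), STAT2 −0.38 (adjusted p = 0.0215), EIF2AK2 0.36 (adjusted p = 0.0477) and PARP14 0.29 (adjusted p = 0.0455). OAS3 and STAT2 were lower with siRNA A, and the other 10 were higher. SAMHD1, USP18, HERC6 and IFITM3 passed in all 16 alternatives. No explanation was tested.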

How the results depend on the processing

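No member changed direction with a call in any of the 16 alternatives run for its 99 values, that is 3 comparisons of 33 members. Library totals alone in place of TMM factors changed most. With them, 1 member was higher for siRNA A, 23 were lower for siRNA B and 4 were higher for siRNA A against siRNA B. Of the other pathway genes, 4 were then higher and 21 lower for siRNA A, 3 higher for siRNA B, and 4 higher and 12 lower for siRNA A against siRNA B. Across all genes the calls for siRNA A moved from 3314 higher and 3831 lower to 1257 and 6532, for siRNA B from 2172 and 2547 to 958 and 4127, and for siRNA A against siRNA B from 2452 and 2703 to 1415 and 3750. On the same scale MOV10 (−0.31), PTPN11 (−0.0063), PNPT1 (−0.29) and LAP3 (−0.10) reversed for siRNA A. These moves follow from the scaling itself. Leaving out 1 library at a time gave 9 to 15 members lower and 2 to 3 higher for siRNA A, 13 to 16 lower for siRNA B, and 6 to 11 higher and 0 to 2 lower for siRNA A against siRNA B, where other pathway genes higher ran from 4 to 9. Of all genes, 23.2% to 29.4% were then lower and 19.8% to 25.9% higher for siRNA A, and 14.4% to 19% lower for siRNA B. For siRNA A against siRNA B, 14.2% to 18.3% of all genes were higher and 14.7% to 19.1% lower. With the replicate number as a block, 12 other pathway genes were higher for siRNA A against siRNA B, and of the members OASL lost its siRNA A call, IFIT1 gained one for siRNA B, and TRIM25, PARP9 and ADAR gained one between the siRNAs. The block changed no other call of a member. For same-numbered libraries of siRNA B, the correlations of deviations were 0.173, 0.445 and −0.386 with control and 0.204, 0.442 and 0.019 with siRNA A. Libraries of unlike numbers were not compared, so these values do not settle whether the numbers mark pairs. Without OASL, IFIT3 and TLR3, which would not have passed the filter without the control group, an alternative chosen after seeing the data, 12 members were lower with each siRNA. Depth limits the lowest members: 3 reads, taken as the floor, stand for 0.129 to 0.193 CPM, and intervals of counting error at 1 CPM rest on 15.6 to 23.3 reads. The causes of calls lost without single libraries were not tested.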

Other observations

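A further list of 49 interferon-responsive genes was written after the values of the members were known, so it is a description and not independent support. Of the 35 tested, 17 were lower and 4 higher with siRNA A (48.6% and 11.4%), where 27.6% and 23.9% of all genes were. With siRNA B 13 were lower and 3 higher (37.1% and 8.57%), where 18.3% and 15.6% of all genes were. The median log2 fold change was −0.33 with siRNA A and −0.23 with siRNA B. These counts include genes such as CMPK2 that passed the filter only with the control group, so that a lower level was built in. No count of this list was made without them. OGFR, the opioid growth factor receptor, averaged 94.9 ± 7.92, 42.6 ± 8.91 and 40.4 ± 1.8 TMM-scaled CPM in the control, siRNA A and siRNA B libraries (mean ± SD, n = 3) and gave −1.15 ± 0.14 (adjusted p = 5.81e-05) and −1.21 ± 0.14 (adjusted p = 8.57e-05). PARP12, an ADP-ribosyltransferase of the same family as PARP9, gave −0.74 ± 0.12 (adjusted p = 0.000309) and −1.08 ± 0.12 (adjusted p = 5.56e-05). SP110, a nuclear body protein related to SP100, gave −1.15 ± 0.24 (adjusted p = 0.00216) and −1.06 ± 0.24 (adjusted p = 0.00592). CMPK2, a nucleotide kinase of mitochondria that passed the filter only with the control group, gave −0.74 ± 0.14 (adjusted p = 0.000819) and −0.70 ± 0.14 (adjusted p = 0.00231). WARS1, the tryptophan tRNA ligase, gave −0.33 ± 0.13 (adjusted p = 0.0464) and −0.94 ± 0.13 (adjusted p = 0.000251). Those higher with both labels were NT5C3A, a nucleotidase, at 0.80 ± 0.16 (adjusted p = 0.00165) and 0.59 ± 0.16 (adjusted p = 0.016), the helicase DDX60L at 0.70 ± 0.12 (adjusted p = 0.000488) and 0.36 ± 0.12 (adjusted p = 0.0343), and ZNFX1, an RNA-binding helicase, at 0.63 ± 0.10 (adjusted p = 0.000387) and 0.32 ± 0.10 (adjusted p = 0.0299). The calls of WARS1 with siRNA A (adjusted p from 0.00148 to 0.158 over the 16 alternatives) and of ZNFX1 with siRNA A (1.15e-08 to 0.0513) did not hold in all alternatives, nor did those with siRNA B of NT5C3A (0.000394 to 0.107), DDX60L (0.0192 to 0.412) and ZNFX1 (0.00906 to 0.454). The further genes named were chosen after their values were seen. With library totals alone 26 were lower and 2 higher with siRNA A, where 47% and 9.05% of all genes were, and none was higher with siRNA B, where 6.9% of all genes were.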
